A study of Mus musculus with 6 samples.

Results

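The genes described here encode tubulins and the motors that walk on microtubules. They are 40 of 11239 listed genes, chosen by symbol and without pseudogenes. Their symbols begin with Tuba, Tubb, Tubg, Dync, Dynl or Dctn, or with Kif or Klc followed by a digit. There are 13 genes of alpha and beta tubulin and of the gamma tubulin complex, 18 of kinesins and 9 of dynein and dynactin. RNA had been sequenced from the tibialis anterior, a shin muscle made mainly of fast fibres, of C57BL/6 mice in 3 samples of young animals, aged 3 months, and 3 samples of aged animals, aged 18 months. No treatment or transgene is named for either group. The labels do not give the animals' sex or say whether each sample came from its own animal, so the p-values measure the spread between these samples, which may be technical. The study as a whole concerned G-CSF from muscle and the loss of muscle stem cells with age, and the comparison here asks how the microtubule genes of the muscle differ between both ages.

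Microtubules are hollow polymers of paired alpha and beta tubulin, nucleated by gamma tubulin complexes. Kinesins mostly carry cargo towards the growing plus end of a microtubule, and cytoplasmic dynein, with its activator dynactin, carries it towards the minus end. In muscle fibres the microtubules form a lattice under the membrane and around the nuclei, and motors on it place nuclei, mitochondria and membrane stores along the fibre.

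The values are FPKM, that is, fragment counts scaled to the length of the transcript and to the fragments of the library. Library totals were between 71984420 and 102135094 fragments, and correlations of log2 values were between 0.993 and 0.996 within an age and between 0.962 and 0.975 across ages. The 6 fast fibre markers (Ckm, Acta1, Myh4, Pvalb, Tnnt3 and Atp2a1) summed to between 72476 and 79567 FPKM in young and between 71453 and 74855 in aged libraries, with 2 of them higher and 1 lower in aged muscle. Aged replicate 3 stood apart for Gapdh, a glycolytic gene, with 67.3 FPKM against 557 to 736 in the other libraries. For the tubulin and motor genes tested, values without that library are given where it changed a call. Genes averaging 1 FPKM or more were tested with limma on log2(FPKM + 1), and a difference was called at a Benjamini-Hochberg adjusted p under 0.05 over the 7690 genes tested. Differences are given as aged minus young in log2(FPKM + 1), a scale that compresses changes of low genes, and folds are ratios of mean FPKM.

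Of the 40 genes, 28 reached the minimum and 12 lay under it. Each of the 28 was at 1 FPKM or more in both group means, so none entered through the higher age alone. In aged muscle 10 of the 28 were higher, 3 were lower and 15 did not pass (limma). The share called among all genes tested was 27.3% higher and 24.5% lower, 51.8% in all. The median difference was 0.09 over the 28 genes and 0.02 over all genes tested. A difference of at least 1.5-fold was reached by 2 called members, Kif21a and Kif3c, against 18.2% of all genes tested. The 3 aged libraries lay outside the range of the 3 young ones for 14 of the 28, against 62.8% of all genes tested. Adjusted over all annotated genes, Tuba1b, Tubb2a, Kif13b, Dynll1 and Dynll2 did not pass, with p between 0.119 and 0.248.

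**Figure D1:**
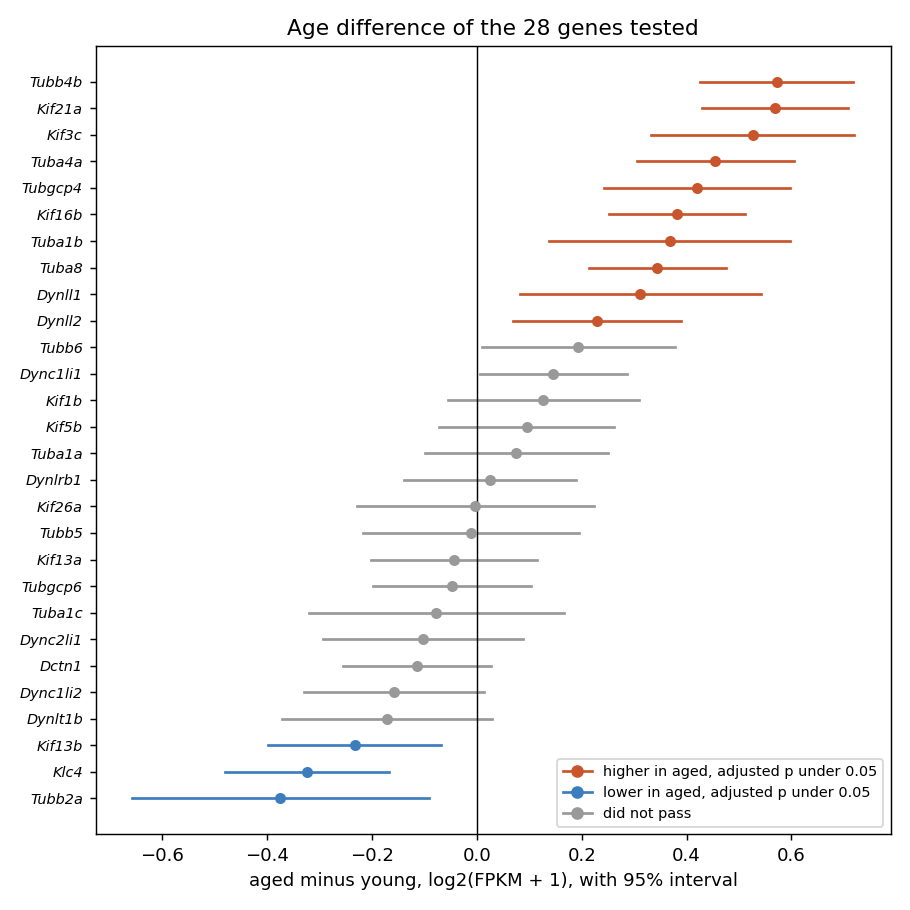
Age difference of the 28 genes averaging 1 FPKM or more, as aged minus young on the log2(FPKM + 1) scale. Points are the limma estimates and bars their 95% intervals, with 10 genes called higher, 3 called lower and 15 that did not pass. Tubb4b and Kif21a stand at the top with 0.57 each, and Tubb2a at the bottom with -0.37.

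Alpha tubulin RNA came mostly from Tuba4a, and both muscle-abundant alpha genes were higher in aged muscle. Tuba4a (chromosome 1, 75214228 to 75219865) encodes an alpha tubulin that lacks the genetically encoded C-terminal tyrosine of most other alpha tubulins. Young replicates 1, 2 and 3 gave 481, 534 and 505 FPKM, and aged replicates 1, 2 and 3 gave 694, 731 and 659. Every aged library lay above every young one. The mean rose from 507 ± 26.8 to 695 ± 36.1 FPKM (SD, n = 3 each), 1.37-fold, with a log2 difference of 0.45 ± 0.06 (SE, limma adjusted p = 0.00128). In bulk tissue fewer cells of a type and less RNA per cell cannot be told apart, here and in what follows.

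Tuba8 (chromosome 6, 121210696 to 121226854), a divergent alpha tubulin found chiefly in striated muscle and testis, stood at 76.4, 83.5 and 81.9 FPKM in the young libraries and at 105, 102 and 101 in the aged ones. The groups did not overlap, and the rise was 1.27-fold (0.34 ± 0.06, limma adjusted p = 0.00231). Both calls were kept under every alternative tried, each library left out in turn included.

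The other alpha genes, Tuba1a, Tuba1b and Tuba1c, lie together on chromosome 15 and are used by most cell types. Tuba1b stood at 11.97, 9.36 and 9.88 FPKM in the young libraries and at 15.0, 13.1 and 13.0 in the aged ones. It rose 1.31-fold (0.37 ± 0.10, limma adjusted p = 0.0165). With young replicate 2 left out the adjusted p was 0.0611, and with young replicate 3 left out 0.0539, so that the call did not hold. Tuba1a, at 14.4, 12.7 and 13.7 FPKM in the young libraries and 14.04, 15.6 and 13.6 in the aged ones, did not pass (adjusted p = 0.426, 95% interval of the difference -0.10 to 0.25), and neither did Tuba1c, with means of 1.90 ± 0.246 and 1.75 ± 0.275 FPKM. These genes are near-identical copies. Of the 50-base words in the longest coding transcript of Tuba1a, Tuba1b and Tuba1c, 72.9%, 73.8% and 61.0% also occur in transcripts of other genes, so the split between them is uncertain. For Tuba4a that share was 1.11% and for Tuba8 0.181%.

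Among beta tubulins Tubb4b and Tubb2a differed in opposite directions. Tubb4b (chromosome 2, 25222160 to 25224702), a broadly used isotype that is also built into cilia, stood at 66.7, 73.5 and 65.4 FPKM in the young libraries and at 106, 99.8 and 101 in the aged ones. All aged libraries lay above all young ones. The mean rose 1.49-fold, from 68.5 ± 4.38 to 102 ± 3.16 FPKM (SD, n = 3), a difference of 0.57 ± 0.06 (limma adjusted p = 0.000441) that was kept under every alternative. Of its 50-base words 50.9% also occur in other transcripts, first of all in the pseudogenes Tubb4b-ps1 and Tubb4b-ps2, which were not analysed here.

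Tubb2a (chromosome 13, 34074301 to 34078008), best known from neurons, was at 6.11, 4.88 and 6.16 FPKM in the young libraries and at 3.47, 4.20 and 4.91 in the aged ones. Young replicate 2 lay just under aged replicate 3, so the groups overlapped. It fell by 0.37 ± 0.12 on the log2 scale (limma adjusted p = 0.0344). Only the fits without young replicate 2 or aged replicate 3, among the 6 that leave out 1 library, kept the call; the others gave adjusted p between 0.0685 and 0.102. The call was also lost without a minimum (0.0694) and on rescaling without the 20 highest genes (0.0516). Its neighbour Tubb2b, with which it shares sequence (49.6% of 50-base words of Tubb2a occur elsewhere), had means of 0.401 ± 0.0892 (young) and 0.423 ± 0.0774 FPKM (aged) and did not pass without the minimum (limma adjusted p = 0.795).

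Tubb5, the general beta tubulin of dividing and resting cells, stood at 31.6, 32.3 and 29.5 FPKM in the young libraries and at 34.6, 31.1 and 27.3 in the aged ones. The aged values enclosed the young ones, and the difference of -0.01 had a 95% interval of -0.22 to 0.20 (limma adjusted p = 0.925). Tubb6, which in mice is raised in regenerating and dystrophic fibres, stood at 13.0, 12.7 and 15.3 FPKM in the young libraries and 15.5, 15.5 and 16.1 in the aged ones. Its difference of 0.19 ± 0.08 did not pass (adjusted p = 0.0737), but passed without young replicate 3 (0.0212) and on rescaling without the 20 highest genes (0.0295). Markers of immature or denervated fibres are set beside it: of 11 tested, 4 fell, 2 rose and 5 did not pass. The 14 listed markers summed to between 466 and 903 FPKM in young and between 78.6 and 97.5 in aged libraries. Myog, a regulator of fibre formation, stood at 3.62, 3.29 and 3.29 FPKM in the young libraries and 1.502, 1.93 and 2.05 in the aged ones. Myog made up little of that sum, and 2 of the 11 tested markers rose instead. The part of these markers in the Tubb6 values was not tested.

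**Figure D2:**
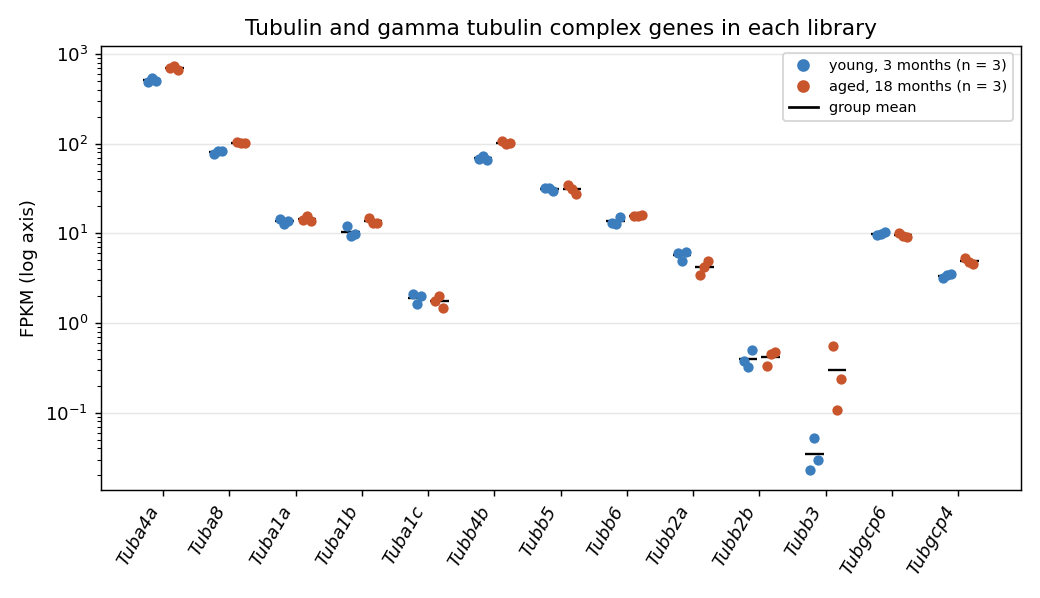
FPKM (log axis) of the 13 tubulin and gamma tubulin complex genes in each library, with 3 young and 3 aged points per gene and a line at each group mean. Tuba4a lies at 481 FPKM or more in every library. Tuba4a, Tuba8, Tuba1b, Tubb4b, Tubb6, Tubb3 and Tubgcp4 show aged points above all young points, and of these Tubb6 and Tubb3 did not pass.

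Tubb3, the tubulin by which neurons are commonly recognised (chromosome 8, 123411424 to 123422015), was near the floor in young muscle, at 0.0229, 0.0525 and 0.0296 FPKM from 3, 5 and 4 fragments. In aged replicates 1, 2 and 3 it stood at 0.554, 0.108 and 0.236 FPKM, from 74, 13 and 28 fragments. All aged libraries were higher, by 8.55-fold in the mean, with most of it in aged replicate 1. With no minimum in the model the difference of 0.31 ± 0.12 on the log2(FPKM + 1) scale did not pass (limma adjusted p = 0.0838). Stmn2, another gene of neurons, which destabilises microtubules, stood at 0.906 ± 0.101 FPKM in young and 1.64 ± 0.287 FPKM in aged muscle. It reached the minimum only through the aged group, so its test is not given as support. Of 8 Schwann cell markers tested, 4 were lower and 0 higher. Their part in the Tubb3 values was not tested.

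Summed over genes, alpha tubulin RNA went from 613 ± 27.98 to 827 ± 37.8 FPKM and beta tubulin RNA from 119 ± 3.69 to 154 ± 5.60 (SD, n = 3), ratios of 1.35 and 1.29. Tuba4a held between 82.1% and 83.3% of the alpha sum in young and between 83.6% and 84.7% in aged libraries, ranges that lay just apart. In the beta pool Tubb4b went from 57.3 ± 1.87% to 66.5 ± 0.765%, Tubb5 from 26.1 ± 0.805% to 20.1 ± 1.75% and Tubb2a from 4.80 ± 0.742% to 2.74 ± 0.554%. Tubb4b shares were between 55.9% and 59.4% in young and between 66.0% and 67.4% in aged libraries, without overlap. No test was made on these sums and shares.

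**Figure D3:**
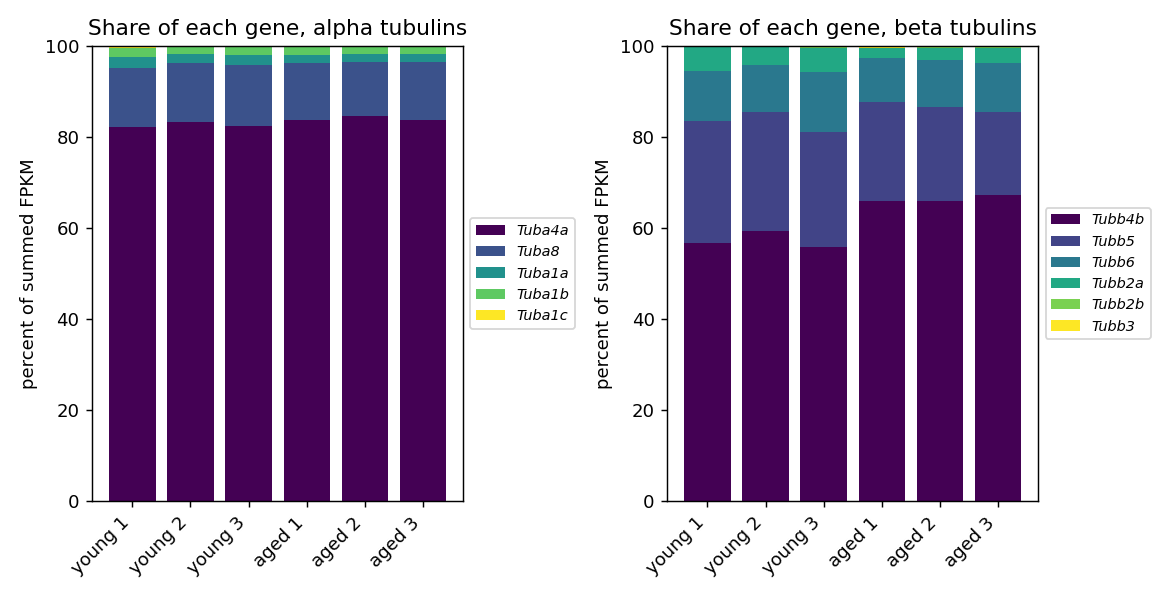
Each alpha tubulin gene (left) and beta tubulin gene (right) as a percent of the summed FPKM of its class, with 1 stacked bar per library. The Tuba4a band stays between 82.1% and 84.7%, while the Tubb4b band is 57.3% on average in young and 66.5% in aged bars.

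Levels of different genes depend on the transcript length behind FPKM. The lengths recovered from the deposited values equalled the mean length of a gene's annotated transcripts, within 0.51 bases, for 22 of the 40 genes, and were under 50% of the longest coding transcript for 12. For Tuba4a the length was 1166 bases, against 2840 for its longest coding transcript. With longest coding transcripts, chosen after seeing the data, Tuba4a held 68.1% of the alpha sum in young and 70.1% in aged muscle, and Tubb4b 60.04% and 68.8% of the beta sum. The alpha sum over the beta sum became 3.52 in young muscle, from 5.13. The same length divides the values of both ages, so the fold of a gene does not depend on which length is chosen. The pseudocount and the minimum of 1 FPKM do depend on it. Whether the transcripts in use differed between ages was not tested.

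The sequences just upstream of a RefSeq start of tubulin genes with opposite directions are shown so that they can be compared. Each is the 250 bases before the RefSeq start on GRCm38.p6, 5′ to 3′ in the direction of the gene, for Tuba4a at chr1:75219295-75219544, minus strand, Tuba8 at chr6:121210484-121210733, plus strand, Tubb4b at chr2:25224703-25224952, minus strand and Tubb2a at chr13:34078009-34078258, minus strand. The Tuba4a window lies inside the deposited span of the gene, which ends at 75219865, so its RefSeq start is an internal one. The Tuba8 window runs past the deposited start of that gene at 121210696. Capitals mark matches, found on either strand, to any of 6 motifs. The E-box was searched with the letters CANNTG, in which N is any base. The CCAAT box was searched with its own letters and the GC box with the letters GGGCGG. The TATA box was searched with the letters TATAAA. The half-site of nuclear receptors was searched with the letters AAGGTCA. The core motif of the MEF2 factors was searched with the letters CTANNNNTAG, and 3.20% of upstream windows hold it. Matches to different motifs may overlap.
Tuba4a: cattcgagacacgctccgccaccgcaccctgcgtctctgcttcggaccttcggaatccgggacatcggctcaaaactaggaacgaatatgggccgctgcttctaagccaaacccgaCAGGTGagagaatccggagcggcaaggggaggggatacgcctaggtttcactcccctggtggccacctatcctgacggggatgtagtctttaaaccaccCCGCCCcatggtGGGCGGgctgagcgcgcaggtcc
Tuba8: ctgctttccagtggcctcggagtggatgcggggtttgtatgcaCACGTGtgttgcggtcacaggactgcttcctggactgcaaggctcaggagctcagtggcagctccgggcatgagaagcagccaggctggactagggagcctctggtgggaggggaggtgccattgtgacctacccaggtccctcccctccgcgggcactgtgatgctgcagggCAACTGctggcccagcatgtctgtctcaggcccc
Tubb4b: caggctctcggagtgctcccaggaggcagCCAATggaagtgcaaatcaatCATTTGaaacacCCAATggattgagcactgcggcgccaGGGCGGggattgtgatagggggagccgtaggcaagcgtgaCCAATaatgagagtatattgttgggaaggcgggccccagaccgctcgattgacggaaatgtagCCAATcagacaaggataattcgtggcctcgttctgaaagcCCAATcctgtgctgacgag
Tubb2a: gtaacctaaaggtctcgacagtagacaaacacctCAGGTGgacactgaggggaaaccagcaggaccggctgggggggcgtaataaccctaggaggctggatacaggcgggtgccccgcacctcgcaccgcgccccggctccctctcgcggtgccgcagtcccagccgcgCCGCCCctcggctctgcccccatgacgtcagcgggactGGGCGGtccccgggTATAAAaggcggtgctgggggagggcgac

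Tubb4b held 5 matches to CCAAT in its window and 1 each to the E-box and the GC box. Of 32851 upstream windows of that length in the RefSeq table, 33.8% hold a CCAAT match and 0.213% hold 5 or more, a count chosen after its value was seen. Tuba4a, Tuba8 and Tubb2a held no CCAAT match. The GC box is in 32.7% of windows, and Tuba4a and Tubb2a held 2 matches each. Tubb2a also held a TATA box, found in 12.4% of windows. All of the sequences shown hold an E-box, as do 66.2% of windows and 21 of the 31 member genes with a window in the table. None of the 31 held the nuclear receptor half-site (4.08% of windows). The matches describe letters and say nothing about binding.

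Of the gamma tubulin complex, which caps and nucleates microtubule minus ends, Tubgcp4 and Tubgcp6 were listed. Tubgcp4 (chromosome 2, 121170654 to 121198770) stood at 3.17, 3.47 and 3.50 FPKM in the young libraries and 5.27, 4.80 and 4.53 in the aged ones. It rose 1.44-fold without overlap (0.42 ± 0.08, limma adjusted p = 0.00360) and kept its call under every alternative in which it was tested. Exons of Trp53bp1 and Zscan29 overlap it on the opposite strand, and the sources used here do not state the strandedness of the libraries, so reads of the overlap cannot be assigned. The same limit holds for Tuba4a (overlapped by Stk16), Tuba8 (Gm15856), Tubb4b (Fam166a), Tuba1b, Tubgcp6, Kif3c, Kif5b, Kif22, Kif26b and Dync1li2. On the same strand, exons of Gm49450 overlap Tuba1a and Tuba1b, and exons of Sh2d5 overlap Kif17, so reads there are uncertain too. Tubgcp6 stood at 9.46, 9.72 and 10.3 FPKM in the young libraries and 9.99, 9.27 and 9.14 in the aged ones and did not pass (-0.05, 95% interval -0.20 to 0.10).

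The kinesin heavy chains with the highest values, Kif1b and Kif5b, did not pass. Kif1b (chromosome 4, 149176319 to 149307693), a kinesin-3 motor of mitochondria and vesicles, stood at 179, 173 and 183 FPKM in the young libraries and at 211, 174 and 202 in the aged ones. Aged replicate 2 lay with the young libraries, and the difference was 0.13 (95% interval -0.06 to 0.31, limma adjusted p = 0.208). Without aged replicate 2 it was 0.21 and passed (adjusted p = 0.0224). Kif5b, the kinesin-1 heavy chain that takes part in spacing the nuclei of mouse muscle fibres, also had aged replicate 2 lowest of the aged libraries, with 65.7, 66.6 and 65.2 FPKM in the young libraries and 72.4, 63.5 and 75.7 in the aged ones (0.09, 95% interval -0.07 to 0.26, adjusted p = 0.299). It too passed without aged replicate 2 (0.0400). Kif1b made up 58.5% of the summed kinesin FPKM in young and 58.0% in aged muscle, or 43.8% and 43.0% with longest coding transcripts.

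The kinesins that rose were Kif21a, Kif3c and Kif16b, all with groups that did not overlap and calls kept under every alternative. Kif21a (chromosome 15, 90933276 to 91049948), a kinesin-4 motor that slows microtubule growth and whose human gene is mutated in a fibrosis of the eye muscles, stood at 4.91, 4.75 and 4.94 FPKM in the young libraries and at 7.78, 7.58 and 7.75 in the aged ones. The libraries of an age were close together, and the rise was 1.58-fold (0.57 ± 0.06, limma adjusted p = 0.000368). Kif3c (chromosome 12, 3365132 to 3406494), a kinesin-2 motor best known from neurons, stood at 6.96, 7.39 and 7.80 FPKM in the young libraries and at 10.1, 10.9 and 12.3 in the aged ones (1.503-fold, 0.53 ± 0.08, adjusted p = 0.00206). Exons of 1110002L01Rik overlap it on the opposite strand. Kif16b (chromosome 2, 142617474 to 142901531), which moves early endosomes, stood at 14.5, 13.7 and 14.1 FPKM in the young libraries and at 19.1, 18.3 and 18.6 in the aged ones (1.32-fold, 0.38 ± 0.06, adjusted p = 0.00145). The upstream window of Kif21a (chr15:91049952-91050201, minus strand), the kinesin with the largest fold rise among those tested, is shown with the same marks and held E-box and GC box matches and no CCAAT match.
Kif21a: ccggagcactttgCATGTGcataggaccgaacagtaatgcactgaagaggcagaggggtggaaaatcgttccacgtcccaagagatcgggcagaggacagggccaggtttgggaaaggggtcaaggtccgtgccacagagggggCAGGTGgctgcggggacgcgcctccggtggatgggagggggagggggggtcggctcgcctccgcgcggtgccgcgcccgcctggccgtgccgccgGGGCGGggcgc

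Klc4 and Kif13b fell. Klc4 (chromosome 17, 46630631 to 46645144), a light chain that links kinesin-1 to cargo, stood at 11.8, 11.8 and 11.7 FPKM in the young libraries and at 9.29, 9.82 and 8.53 in the aged ones. It was 1.28-fold lower without overlap (-0.32 ± 0.07, limma adjusted p = 0.00612), and its call was kept under every alternative. Kif13b, a kinesin-3 motor that binds membrane scaffolds, stood at 3.36, 3.04 and 3.16 FPKM in the young libraries and 2.52, 2.47 and 2.69 in the aged ones (-0.23 ± 0.07, adjusted p = 0.0263). Leaving out young replicate 1 (0.0941), young replicate 3 (0.0675), aged replicate 1 (0.0610) or aged replicate 2 (0.0579) ended this call, as did rescaling without the 20 highest genes (0.0522). Kif13a, a motor of recycling endosomes, at 23.4 to 25.3 FPKM in young and 22.1 to 25.0 in aged libraries, and Kif26a, a kinesin without motor activity, at 4.06 to 4.56 and 3.57 to 4.61, did not pass (adjusted p = 0.610 and 0.980).

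**Figure D4:**
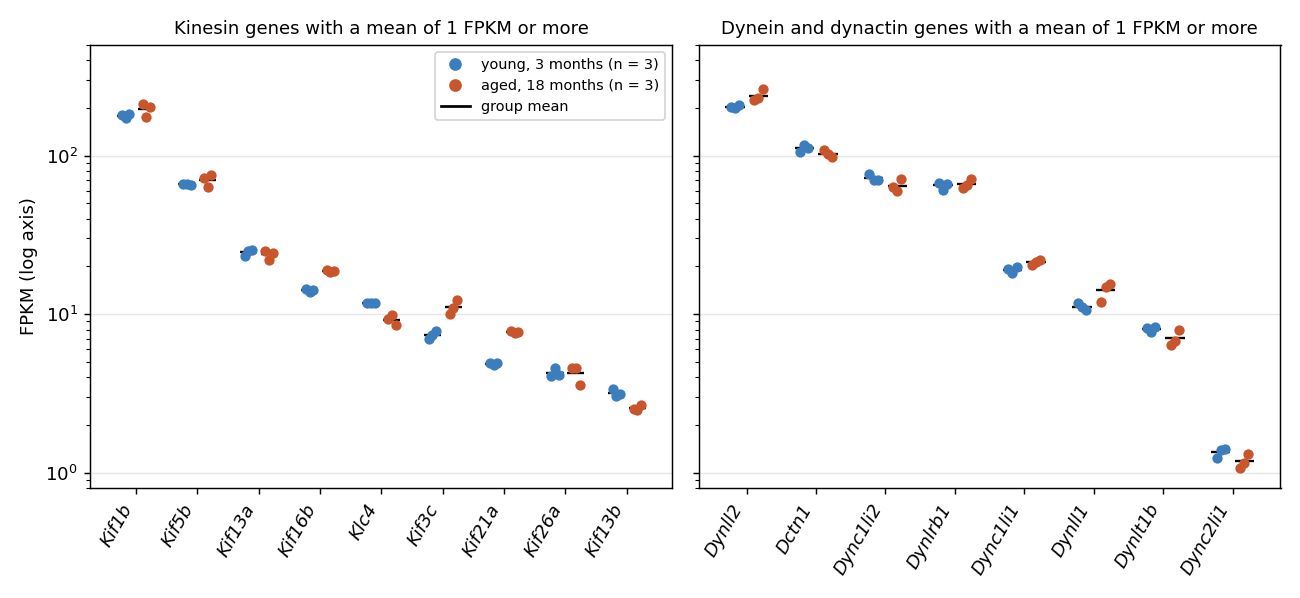
FPKM (log axis) of the kinesin genes (left) and the dynein and dynactin genes (right) averaging 1 FPKM or more in each library, 3 young and 3 aged points per gene with a line at each group mean. Aged points lie above all young points for Kif21a, Kif3c, Kif16b, Dynll2, Dynll1 and Dync1li1, and below them for Klc4 and Kif13b.

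Markers of other cell types in the muscle moved with age as well. Over all genes tested 27.3% were higher and 24.5% lower. Of the tested markers of tendon cells 11 of 12 fell, and the summed level of that list was between 289 and 616 FPKM in young and between 101 and 125 in aged libraries. Of those of fibro-adipogenic progenitors 9 of 12 fell (1003 to 1380 against 290 to 373 FPKM), of macrophages 6 of 9 (44.96 to 71.5 against 20.7 to 43.4), of endothelium 7 of 13, with 1 higher (388 to 456 against 300 to 372), and of Schwann cells 4 of 8 (98.5 to 112 against 72.4 to 75.5). No listed marker of these cell types was at 0 in all libraries. Those of pericytes and smooth muscle had 3 lower and 1 higher of 8. Other lists were higher in aged libraries. Of lymphocyte markers 2 of 3 rose (11.3 to 13.9 against 27.5 to 54.3 FPKM), of erythroid and platelet markers 2 of 6 (129 to 190.2 against 236 to 243) and of adipocyte markers 3 of 6, with 1 lower (70.2 to 82.6 against 83.0 to 87.7). Of muscle stem cell markers 1 of 5 rose and 1 fell. Their part in the rises and falls of tubulins and motors was not tested.

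Among dynein genes the light chains Dynll2 and Dynll1 rose, and the 3 light intermediate chains tested (Dync1li1, Dync1li2 and Dync2li1) did not pass. The heavy chain Dync1h1 and the intermediate chains of cytoplasmic dynein were not analysed here. Dynll1 and Dynll2 encode the small LC8 dimer that clamps partners of dynein and of many other proteins. Dynll2 (chromosome 11, 87979525 to 87987533) stood at 201, 198 and 209 FPKM in the young libraries and at 225, 229 and 261 in the aged ones, without overlap (1.18-fold, 0.23 ± 0.07, limma adjusted p = 0.0258). Leaving out young replicate 1 (adjusted p = 0.0732) or young replicate 2 (0.0825) ended the call. Dynll1 stood at 11.8, 11.1 and 10.6 FPKM in the young libraries and at 11.99, 14.9 and 15.6 in the aged ones, with aged replicate 1 just above the young range. Its call (0.31 ± 0.10, adjusted p = 0.0311) was lost without young replicate 2, young replicate 3, aged replicate 2 or aged replicate 3 (0.0833 to 0.0925), and with no minimum (0.0572).

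Dynlrb1, a light chain of the roadblock type, was at 67.5, 60.6 and 66.3 FPKM in the young libraries and 62.0, 65.2 and 70.7 in the aged ones and did not pass (0.03, 95% interval -0.14 to 0.19). Dynlt1b, of the Tctex type, went from 8.04 ± 0.324 to 7.06 ± 0.841 FPKM (adjusted p = 0.130, and 0.0301 without aged replicate 3). Of its 50-base words 83.2% occur in other genes, among them Dynlt1a, Dynlt1c and Dynlt1f, so its value is uncertain.

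The light intermediate chains, which join the dynein motor to its cargo adaptors, pointed in opposite directions without passing. Dync1li2 stood at 76.1, 70.2 and 70.2 FPKM in the young libraries and 63.5, 59.9 and 70.6 in the aged ones (-0.16, limma adjusted p = 0.107, and 0.0307 without aged replicate 3, which lay with the young libraries). Dync1li1 stood at 19.3, 18.1 and 19.8 FPKM in the young libraries and 20.5, 21.2 and 21.9 in the aged ones, without overlap (0.15 ± 0.06, adjusted p = 0.0755, and 0.0190 on rescaling without the 20 highest genes). Dctn1, the dynactin subunit that grips the microtubule, stood at 106, 116 and 111 FPKM in the young libraries and 108, 102 and 98.4 in the aged ones (-0.11, 95% interval -0.25 to 0.03, adjusted p = 0.147). Of the second cytoplasmic dynein, which works inside cilia, Dync2li1 was at 1.34 ± 0.0958 and 1.18 ± 0.124 FPKM (adjusted p = 0.324). Its heavy chain Dync2h1 is among the genes under the minimum.

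The 12 genes under 1 FPKM on average were fitted in the model without a minimum. There 24.7% of the genes under 1 FPKM were called in either direction, and 39.3% had groups that did not overlap, as did 7 of the 12. In that model 4 of the 12 were called, Kif26b higher and Kif11, Kif23 and Dync2h1 lower. Kif26b, which shapes the adhesion of embryonic kidney cells in mice, stood at 0.334, 0.273 and 0.404 FPKM in the young libraries and 0.768, 0.610 and 0.667 in the aged ones, 2.02-fold higher, with 693 young and 1422 aged fragments (limma adjusted p = 0.00691 without the minimum). Dync2h1 went from 0.737 ± 0.0505 to 0.536 ± 0.0220 FPKM (adjusted p = 0.0141).

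The mitotic kinesins were close to the floor of detection and had fewer fragments in aged muscle. Kif11, which pushes spindle poles apart, stood at 0.101, 0.112 and 0.167 FPKM in the young libraries and 0.0534, 0.0343 and 0.0715 in the aged ones, with 169 young and 72 aged fragments (limma adjusted p = 0.0419 without the minimum). Kif23, a motor of the midbody in cell division, stood at 0.370, 0.387 and 0.323 FPKM in the young libraries and 0.0943, 0.178 and 0.188 in the aged ones, with 133 young and 58 aged fragments (adjusted p = 0.00785). Both sets of groups were apart, with each aged library lower. Kif20b, which also serves cytokinesis, had 119 and 34 fragments (adjusted p = 0.0665), and Kif22, which acts on chromosome arms, had 109 and 70 (adjusted p = 0.275).

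Some markers of cycling cells were also close to the floor. Cdk1 was lower in aged muscle, at 0.0899, 0.124 and 0.320 FPKM in the young libraries and 0, 0.0109 and 0.0440 in the aged ones. Aurkb was lower as well, at 0.209 ± 0.0610 and 0.0367 ± 0.0145. Mki67 was at 0.135 ± 0.0879 and 0.117 ± 0.105 FPKM. The spindle genes Aurka and Tpx2, which are on the same list of markers, were higher in each aged library than in each young one. With them, the 7 listed markers of cycling cells summed to between 2.43 and 3.52 FPKM in young and between 7.49 and 10.7 in aged libraries. Aurka rose from 1.64, 1.35 and 1.996 to 5.10, 6.37 and 7.40 FPKM (limma adjusted p = 0.000237). Tpx2 stood at 0.687 ± 0.0646 FPKM in young and 2.21 ± 0.691 FPKM in aged muscle, and it reached the minimum only through the aged group, so no test is given for it. The part of cycling cells in the kinesin values was not tested.

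The other genes under the minimum are known mainly from neurons and did not pass. Kif5c was at 0.183, 0.383 and 0.312 FPKM in the young libraries and 0.452, 0.365 and 1.00 in the aged ones, with aged replicate 3 highest (adjusted p = 0.1705 without the minimum). Kif5a was at 0.142 ± 0.0312 and 0.217 ± 0.0434 FPKM (adjusted p = 0.0856), and Kif1a at 0.866 ± 0.180 and 0.737 ± 0.0437 (adjusted p = 0.329). Kif17 had 15 fragments in young and 10 in aged muscle.

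**Figure D5:**
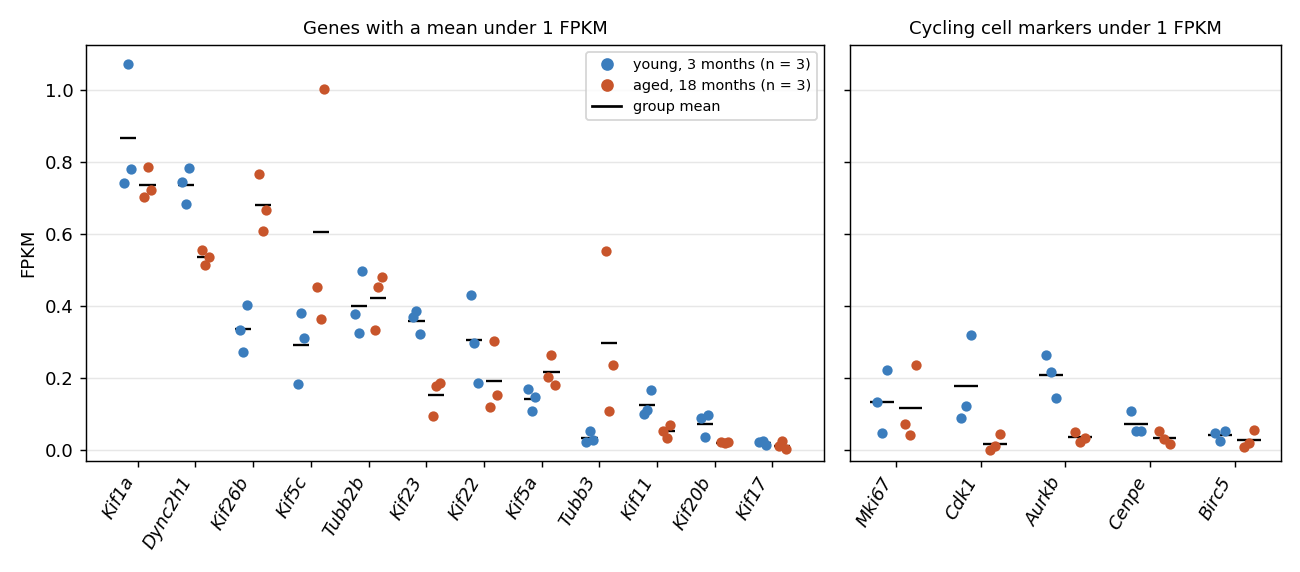
FPKM (linear axis) in each library of the 12 genes with a mean under 1 FPKM (left) and of 5 markers of cycling cells under 1 FPKM (right). Each gene has 3 young and 3 aged points with a line at each group mean. The markers Aurka and Tpx2 are not drawn. Kif11, Kif20b, Kif23 and Dync2h1 show aged points below all young points, and Kif26b, Kif5a and Tubb3 above them. Tubb3 shows aged replicate 1 at 0.554 FPKM, and Kif5c shows aged replicate 3 at 1.00 FPKM.

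Partners of these genes were followed in 10 lists of other microtubule genes. Of 110 tested genes in them, 36 rose, 15 fell and 59 did not pass, with a median difference of 0.08. Over all genes tested 27.3% were higher and 24.5% lower, 51.8% in all, with a median of 0.02. The counts of each list below stand beside those shares and were not tested against them. Of the 53 called genes in these lists together with Aurka and Tpx2, 24 kept their calls under every alternative. None of the others passed when adjusted over all annotated genes. Among these were Sun2 (limma adjusted p = 0.0529), Lmna (0.0891) and Cct6a, Pfdn1, Pfdn5, Mzt1, Ttll4, Agtpbp1, Tbcb, Ift22 and Ift43 (0.107 to 0.351). Stmn2 and Tpx2 are in these counts although they reached the minimum only through the aged group, so neither is given as support. Numbers in brackets after a library or setting below are adjusted p from limma.

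Dynein partners had 6 higher and 1 lower of 14 (median 0.17). The genes named here are higher, and all are adaptors that link dynein to cargo. Hook1 (chromosome 4, 95967240 to 96025413) stood at 8.88, 8.17 and 9.52 FPKM in the young libraries and at 30.9, 28.6 and 31.8 in the aged ones. That is a 3.44-fold rise without overlap (1.68 ± 0.07, limma adjusted p = 1.71e-05). Hook2 rose from 1.61 ± 0.152 to 3.27 ± 0.244 FPKM, Rab11fip3 from 53.9, 57.6 and 54.3 to 70.3, 78.5 and 71.5, and Bicd2 from 10.2, 10.4 and 9.995 to 14.5, 12.9 and 13.6.

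Of 12 tested kinesin partners, 5 rose and 2 fell (median 0.20). Fez1, an adaptor of kinesin-1, stood at 2.14, 1.46 and 1.38 FPKM in the young libraries and 5.41, 3.93 and 4.09 in the aged ones (2.69-fold, limma adjusted p = 0.000983). Mapk8ip1, the scaffold JIP1 that also binds kinesin-1, fell from 3.94 ± 0.217 to 1.998 ± 0.0283 FPKM (-0.72 ± 0.07, adjusted p = 0.000275). Borcs5 and Arl8b, which couple lysosomes to kinesin, rose from 11.5 ± 0.0556 to 14.6 ± 0.486 and from 38.5 ± 1.47 to 47.1 ± 1.92 FPKM.

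Of 27 microtubule-associated proteins, 6 rose and 4 fell (median 0.01). The 6 include Stmn2, which reached the minimum only through the aged group. Map7 (chromosome 10, 20148471 to 20281590), which recruits kinesin-1 and helps space nuclei in muscle cells, stood at 3.95, 3.41 and 4.11 FPKM in the young libraries and 11.9, 13.6 and 11.2 in the aged ones, 3.20-fold higher (1.46 ± 0.09, limma adjusted p = 4.98e-05). Clip3 fell from 8.26 ± 1.32 to 3.60 ± 0.559 FPKM, and Mapre2, a protein of growing plus ends, from 30.9 ± 0.651 to 21.5 ± 1.49. Of 12 enzymes that modify tubulin, 3 rose and 1 fell (median 0.01). Ttll7, which adds glutamates to beta tubulin, went from 36.6, 39.3 and 38.0 to 65.7, 75.0 and 83.8 FPKM (1.97-fold, adjusted p = 0.000232). Ttll4, another glutamylase, and Agtpbp1, which trims glutamates, went from 7.75 ± 0.277 to 9.61 ± 0.824 and from 25.6 ± 0.316 to 30.3 ± 2.47 FPKM. The Ttll4 call was lost without young replicate 2 (0.0541) or young replicate 3 (0.0565), and the Agtpbp1 call without young replicate 1 (0.0598), young replicate 2 (0.0728) or young replicate 3 (0.0613). Vash1, which removes the C-terminal tyrosine of alpha tubulin, fell from 3.41 ± 0.0975 to 1.90 ± 0.129 FPKM (adjusted p = 0.000619).

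Of 14 tested proteins that organise microtubules, 7 rose and 2 fell (median 0.16). Nedd1, which anchors gamma tubulin, rose from 8.92 ± 0.383 to 12.4 ± 1.03 FPKM (limma adjusted p = 0.00298), and Akap6, which gathers such proteins at the nuclear envelope of muscle cells, from 4.09, 3.85 and 3.97 to 6.49, 4.96 and 8.32 (adjusted p = 0.0125, but 0.0902 when every annotated gene was counted). Haus8, a subunit of the branching complex augmin, fell from 2.35 ± 0.534 to 1.23 ± 0.189 FPKM (adjusted p = 0.00731, but 0.0527 when every annotated gene was counted). Mzt1, a small subunit of gamma tubulin complexes, went from 15.995 ± 0.838 to 20.2 ± 2.53 FPKM, a call lost without young replicate 1 (0.0633) or young replicate 2 (0.0780). Of 6 tested nuclear envelope anchors 2 rose and 2 fell (median -0.20). Syne1, which ties nuclei to the cytoskeleton, rose from 17.7, 15.8 and 17.3 FPKM in the young libraries to 21.8, 24.2 and 22.9 in the aged ones (limma adjusted p = 0.00235). Emerin (Emd) rose from 21.2 ± 0.617 to 27.2 ± 1.90 FPKM, while Sun2, the inner partner of nesprins, fell from 111 ± 4.96 to 89.9 ± 6.02 and Lmna, of the nuclear lamina, from 42.9 ± 1.57 to 34.7 ± 3.15.

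Of 6 tubulin cofactors 2 rose and 0 fell (median 0.14), with Tbcd, which assembles the alpha and beta pair, at 9.87 ± 0.386 and 12.6 ± 0.320 FPKM (limma adjusted p = 0.00395) and Tbcb at 18.5 ± 0.967 and 21.5 ± 1.61 (0.0486). The Tbcb call was lost on leaving out any library but aged replicate 1 (0.0667 to 0.156), without aged replicate 3 at 0.125, and under median-of-ratios scaling (0.0631), voom (0.0722) and no minimum (0.0614). Of 9 genes listed for the chaperonin CCT and prefoldin, which fold new tubulin and actin, 3 rose and 1 fell (median 0.10). Pdcl3, which is a subunit of neither, stood at 18.9 ± 0.741 and 24.6 ± 1.97 FPKM (limma adjusted p = 0.00496). The other calls of this list depended on single libraries. Cct6a, at 67.5 ± 2.31 and 83.2 ± 8.19 FPKM, lost its call without young replicate 2 (0.0553). Pfdn5, at 55.8 ± 4.72 and 67.7 ± 8.13 FPKM (0.0470), lost it without young replicate 2 (0.152), young replicate 3 (0.0949), aged replicate 1 (0.0535) or aged replicate 3 (0.112), and with no minimum (0.0790). Without aged replicate 3 its difference went from 0.27 to 0.18. Pfdn1, at 55.0 ± 1.74 and 47.3 ± 2.45 FPKM, lost it without young replicate 1 (0.0619), young replicate 2 (0.0719) or aged replicate 1 (0.0566), and on rescaling without the 20 highest genes (0.0619). Of 8 genes of transport inside cilia 2 rose and 2 fell (median -0.06), Wdr60 from 3.26, 3.22 and 3.07 to 5.96, 4.597 and 5.80 FPKM and Ift27 from 5.44, 5.13 and 5.32 to 3.56, 3.10 and 4.14. Ift22 was at 4.81 ± 0.272 and 3.93 ± 0.423 FPKM (0.0443), but its call was lost on leaving out any library except aged replicate 1 (0.0764 to 0.139), without aged replicate 3 at 0.123, and under rescaling without the 20 highest genes (0.0946), voom (0.0740) and no minimum (0.0694). Ift43 was at 7.12 ± 0.476 and 8.31 ± 0.401 FPKM (0.0484), but its call was lost on leaving out any library except aged replicate 2 (0.0510 to 0.156), without aged replicate 3 at 0.0911, and under voom (0.105) and no minimum (0.0627). Of the axonemal dyneins 2 were tested and 0 passed (limma).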

How the data were processed

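Gene expression was measured by RNA-seq in 6 samples. The authors deposited FPKM values, 1 table per library. The tools named in the submitters' processing notes are TopHat, DESeq2 and bcl2fastq 2.19, and the build named is mm9. Positions in the tables follow GRCm38 instead: 89.0% of the identifiers found in GENCODE M21 have the same start base. Coordinates are given as deposited. The sources used here do not say how the 11239 genes were selected, and 48 coding genes of these families in GENCODE M21 were not analysed here. 

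Whole fragment counts were recovered from the FPKM values, from a library total and a transcript length per gene, with 100% of them within 0.001 of an integer. At these depths 3 fragments of a 1 kb transcript equal 0.0294 to 0.0417 FPKM. Replicates of an age differed beyond sampling noise (chi-square of 28.9 to 73.8 per degree of freedom), so none was counted as a copy.

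Values were compared as log2(FPKM + 1) with limma 3.58.1 in R 4.3.3 (empirical Bayes with a trend, two-sided), on every gene averaging 1 FPKM or more. The fit was also run on simulated counts with few changed genes and the same relative spread set for every gene. These libraries differ from such data, so that run checks the code and not the calls. Values in every library are given for called members of at least 1.5-fold, for the highest members of each class and for most others. In each of the other lists up to 4 called genes with the largest absolute log2 difference are named. Aurka, Tpx2, other cell type markers and Gapdh were named beside results after their values were seen. The members and lists were chosen with earlier results of these data known. Both ages carry replicate numbers 1 to 3, and the numbers were taken to pair the samples in an alternative fit. After subtraction of group means same-numbered libraries correlated at 0.177, 0.182 and 0.136 (others -0.192 to 0.0358). That subtraction makes the 3 values of an age sum to 0, so positive correlations in 1 matching push others down. These correlations therefore do not show that the samples were paired.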

Additional observations from a re-analysis of the deposited data

How the results depend on the processing

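The count of members higher in aged muscle was 10 as reported and stayed between 7 and 12 over the 15 alternatives, within 1.5 times. The count lower in aged muscle, reported as 3, was 5 without a minimum, 1 when 5 FPKM were required, 1 after rescaling to leave out the 20 highest genes and 1 adjusted over all annotated genes, and 1 to 5 with 1 library left out in turn. It was 1 without young replicate 1, young replicate 3, aged replicate 1 or aged replicate 2, and 5 without aged replicate 3. The members tested fell to 22 at 5 FPKM and rose to 40 with no minimum; the cause of the other shifts was not tested. Of the 13 calls, 8 were kept under all alternatives. With the replicate block the counts were 10 higher and 3 lower, and no call of a member changed. In the other microtubule lists Haus2 lost its call under the block and Fez2, Lmnb1 and Tbca gained one. Differences near 0 changed sign: on rescaling Tubb5 was at 0.053, Tubgcp6 at 0.012, Kif13a at 0.019 and Kif26a at 0.050, with voom Kif26a was at 0.0041, and with 1 library left out Tubb5 ranged from -0.092 to 0.074, Kif13a from -0.078 to 0.0085, Kif26a from -0.053 to 0.094 and Dynlrb1 from -0.025 to 0.068. None of these passed. Rescaling without the 20 highest genes moved the median of all genes from 0.02 to 0.08. It gave 2648 higher and 1580 lower genes, against 2097 and 1885.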
